A study of Mus musculus with 12 samples.

Results

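The genes described here are 9 transporters of organic ions and conjugates: the SLC22 members Slc22a7, Slc22a27 and Slc22a28, the SLCO members Slco1a1, Slco1b2 and Slco2b1, and the ABCC members Abcc2, Abcc3 and Abcc4. They are a list of symbols chosen by their measured levels in these same libraries, 9 of the 55487 gene identifiers in the count files, and all 9 were found. Of these, 8 passed the filter on low counts, as did 13535 genes in all, and Slc22a28 did not. The list was drawn up with earlier results of these data known, so that every fold change and call given for its members is a description of them, not an independent test. Its working name speaks of cations too, but no dedicated cation transporter is among the 9, and Slc47a1, which carries cations, is described with the other transporters.

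Hepatocytes take organic anions, bile acids and drugs from the blood with carriers of the SLC22 and SLCO families, which sit in the sinusoidal (basolateral) membrane. Conjugates with glutathione, glucuronic acid or sulfate then leave the cell through ATP-driven pumps of the ABCC family, into bile across the canalicular membrane or back into the blood. In cholestasis and oxidative stress, hepatocytes are known to lower uptake carriers and to raise basolateral pumps. The levels of uptake carriers also fall when hepatocytes are kept in culture.

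Messenger RNA was sequenced from primary mouse hepatocytes of liver in 12 libraries, 4 groups of 3, with strain, age and genotype not given in the labels. Control cells were untreated. FAC cells received FAC, which the labels do not spell out. Lip-1+FAC cells were pretreated on culture day 2 with liproxstatin-1, which by its label scavenges lipid reactive oxygen species (ROS), and then received FAC. MT+FAC cells were pretreated on the same day with Mito-TEMPO, which by its label scavenges mitochondrial ROS, and then received FAC. No group received a scavenger alone, so that the effect of a scavenger cannot be told apart from its effect on the response to FAC. The series title places the work on mitochondrial ROS and sensitivity to ferroptosis, a form of cell death driven by iron and lipid peroxidation.

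FAC replicate 2 was the deepest library, with 52529278 gene-assigned counts, and the other 11 held 22991598 to 31683376. The 10 hepatocyte markers (among them Alb, Ttr and Apoa1) together held 60416 to 76025 CPM (gene counts scaled to library size) in every library. Xist was at 0 counts in all 12 libraries and 4 Y-linked genes together held 175 to 217 CPM, as in cells from males. The labels do not say whether replicates came from separate animals or cultures, so that p-values measure the spread between these libraries, which may be technical. In bulk RNA, fewer cells of a type and less RNA per cell cannot be told apart.

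The SLC22 members differ in how well their reads can be told from those of their relatives. On build GRCm38, Slc22a27 (ENSMUSG00000067656) spans chr19:7864388-7966027 and Slc22a28 (ENSMUSG00000063590) spans chr19:8062209-8131982, both on the minus strand. They lie in a row of 6 minus-strand genes, Slc22a19, Slc22a26, Slc22a27, Slc22a28, Slc22a29 and Slc22a30, from position 7673061 to 8405111. The longest open reading frame of Slc22a27 was 97.3% identical to that of Slc22a29 and 91.7% identical to that of Slc22a28, and Slc22a28 was 98.8% identical to Slc22a30. Of the 100-base windows of the Slc22a27 transcript, 7.54% were also found in another gene, against 37.0% for Slc22a28. Read pairs that lie wholly in such stretches map to several places, and multimapping reads were not counted. The levels of Slc22a28 and Slc22a27 are therefore uncertain, and the direction of the error was not measured. The near copy Slc22a29 itself reached at most 0.381 CPM in any library.

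Slc22a7 (ENSMUSG00000067144) stands apart from that row, at chr17:46432183-46438457 on the minus strand, and its open reading frame was 54.2% identical to that of Slc22a27. Slco1b2 (ENSMUSG00000030236, chr6:141629518-141686646, plus strand) and Slco1a1 (ENSMUSG00000041698, chr6:141907282-141946962, minus strand) share a cluster of SLCO genes, with 57.6% identity between their frames. Slco2b1 (ENSMUSG00000030737) is at chr7:99657804-99711340 on the minus strand, and 9.21% of its exonic bases are also exonic in Gm15635 or Gm34280 on the other strand, so that without strand some of its reads could not be assigned. Abcc2 (ENSMUSG00000025194) is at chr19:43782192-43840740 on the plus strand, Abcc3 (ENSMUSG00000020865) at chr11:94343295-94392997 on the minus strand, and Abcc4 (ENSMUSG00000032849) at chr14:118482692-118706219 on the minus strand. The 3 ABCC frames were 56.3% to 58.5% identical to each other, and none of their 100-base windows occurred in another gene.

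RefSeq promoters of build GRCm38.p6 were matched for 7 of the 9 members, with no entry for Slc22a7 and Abcc3. The bases just before the start are shown for 3 members that represent the patterns below: Slc22a27, lower with FAC and higher with either scavenger; Abcc4, higher with either scavenger; and Slco1a1, lower with either scavenger. Capitals mark matches, on either strand, to 6 short motifs. The letters searched were TATAAA for the box bound by the TATA-binding protein, GTTAAT for the HNF1 core, AGGTCA for the nuclear receptor core, TTGCNNAA for C/EBP factors, TGACNNNGC for the antioxidant response element and GCGTG for the AHR core.
Slc22a27 promoter, chr19:7966028-7966277, minus strand: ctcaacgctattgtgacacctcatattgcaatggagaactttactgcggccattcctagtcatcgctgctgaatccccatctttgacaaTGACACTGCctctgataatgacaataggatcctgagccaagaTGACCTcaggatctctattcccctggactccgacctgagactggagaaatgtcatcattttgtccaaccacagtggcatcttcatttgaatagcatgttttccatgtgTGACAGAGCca
Abcc4 promoter, chr14:118706220-118706469, minus strand: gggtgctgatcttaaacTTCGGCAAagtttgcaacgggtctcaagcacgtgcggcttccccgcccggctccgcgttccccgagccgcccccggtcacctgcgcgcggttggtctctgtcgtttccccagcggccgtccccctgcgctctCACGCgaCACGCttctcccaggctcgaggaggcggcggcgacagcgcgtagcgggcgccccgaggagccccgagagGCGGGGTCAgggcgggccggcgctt
Slco1a1 promoter, chr6:141946963-141947212, minus strand: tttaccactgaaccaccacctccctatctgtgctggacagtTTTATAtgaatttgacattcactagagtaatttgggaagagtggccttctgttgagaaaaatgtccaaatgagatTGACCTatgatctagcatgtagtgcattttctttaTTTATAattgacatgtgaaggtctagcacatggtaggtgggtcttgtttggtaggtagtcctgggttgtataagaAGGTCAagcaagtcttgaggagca
The antioxidant response element is the site bound by NRF2, the oxidative stress factor encoded by Nfe2l2. Its letters stood at positions -161 to -153 and -11 to -3 from the start of Slc22a27, and at -25 to -17 from the start of Abcc4. They stood also at -98 to -90 from the RefSeq start of Abcc2, a stretch that lies inside the first exon of a longer GENCODE transcript and is not printed. The other 4 matched members, Slc22a28, Slco1a1, Slco1b2 and Slco2b1, did not have these letters in the 250 bases, and 10.2% of 32817 RefSeq promoters had them. The letters AGGTCA occurred in Slc22a27, Slco1a1, Slco1b2 and Abcc2, against 14.0% of all promoters. TATAAA occurred in Slco1a1 and Slco1b2, against 12.4%, and Slco1b2 alone of the 7 held GTTAAT, against 6.44%. TTGCNNAA occurred in Slc22a28 and Abcc4, against 9.57%, and GCGTG in Abcc4, against 28.1%. Slco2b1 held none of the 6. AGGTCA and TGACNNNGC can overlap, which they did not in these 7. These matches are descriptions of letters, not of binding.

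Among themselves, the members differed far more in level than any of them changed. Scaled to exonic length, as CPM per kb of exon, Abcc3 was the highest member in every group, from 81.0 ± 5.63 (SD, n = 3) in Control to 99.6 ± 2.63 in Lip-1+FAC. Abcc2 followed in every group, at 13.2 ± 0.809 in Control, 21.8 ± 2.15 with FAC, 47.8 ± 3.34 with Lip-1+FAC and 31.5 ± 2.05 with MT+FAC. The distance between these pumps was thus smallest in Lip-1+FAC, and no library of one overlapped a library of the other.

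**Figure D1:**
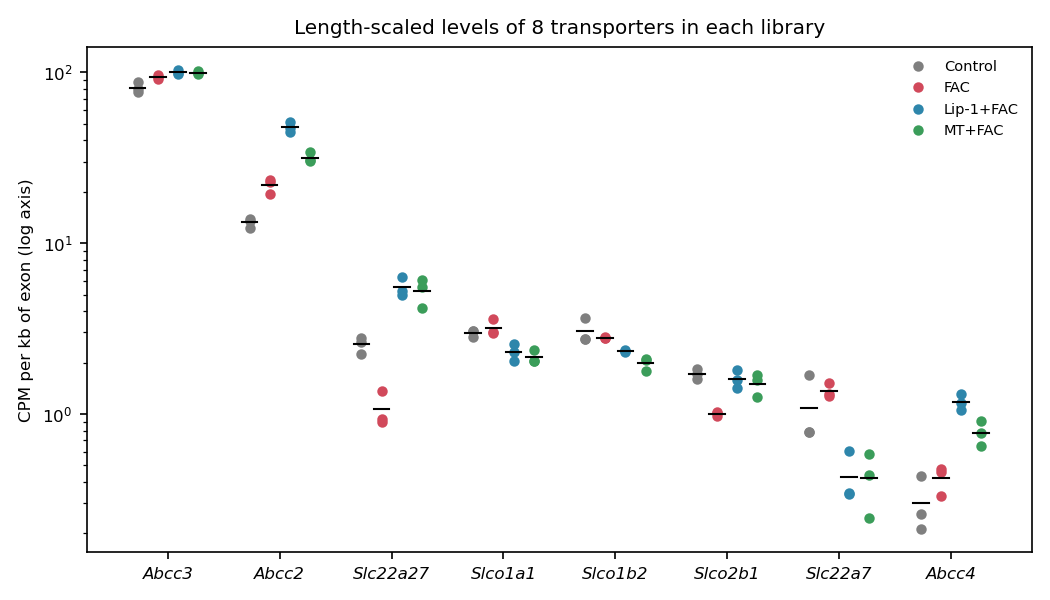
Level of 8 transporters in CPM per kb of exon (log axis), 1 point per library and a line at the mean of 3, by group. Abcc3 and Abcc2 are above all others in every group, and Slc22a27 is above the SLCO members with either scavenger but has a lower mean than Slco1a1 and Slco1b2 in Control and FAC. Slc22a28, with 0 to 7 counts per library, is not drawn.

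The order of the remaining members depended on the group. In Control it ran Slco1b2 at 3.04 CPM per kb, Slco1a1 at 2.98, Slc22a27 at 2.55, Slco2b1 at 1.72, Slc22a7 at 1.09 and Abcc4 at 0.302. Slco1b2 and Slco1a1 overlapped there, and so did Slco2b1 and Slc22a7. In FAC, Slc22a27 at 1.07 CPM per kb overlapped both Slc22a7 above it and Slco2b1 below it. With either scavenger, Slc22a27 was the third member, at 5.53 in Lip-1+FAC and 5.25 with MT+FAC, above every library of the SLCO genes. Abcc4 passed Slc22a7 in these groups, with 1.18 against 0.430 CPM per kb in Lip-1+FAC and 0.777 against 0.423 in MT+FAC, and their libraries did not overlap.

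The 3 ABCC members were each higher in every pretreated library than in any Control library. Abcc2 encodes MRP2, the canalicular pump that secretes glutathione conjugates and bilirubin glucuronides into bile. It was at 114, 119 and 105 CPM in the Control libraries, 200, 193 and 166 in FAC, 381, 404 and 438 in Lip-1+FAC, and 289, 260 and 257 in MT+FAC. The 4 groups did not overlap and ran in the order Control, FAC, MT+FAC, Lip-1+FAC. Abcc2 rose 1.65-fold with FAC (log2 0.73, SE 0.0763), a further 2.19-fold in Lip-1+FAC over FAC (log2 1.13, SE 0.0759) and 1.44-fold in MT+FAC over FAC (log2 0.53, SE 0.0753). All 3 changes passed the call used here, an adjusted p under 0.05 in edgeR's quasi-likelihood test over all genes.

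Abcc4 encodes MRP4, a basolateral pump that exports bile acids together with glutathione, and cyclic nucleotides. Its levels were 2.78, 1.35 and 1.66 CPM in Control, 2.12, 3.03 and 2.91 with FAC, 8.37, 7.40 and 6.77 with Lip-1+FAC, and 5.81, 4.15 and 4.92 with MT+FAC. Control and FAC overlapped, through Control replicate 1, and both pretreated groups lay above them. The log2 difference of FAC over Control was 0.50 (SE 0.243) and was not called. With 1 library left out it ran from 0.29 to 0.85, and it was called at 0.85, without Control replicate 1. Abcc4 rose 2.78-fold in Lip-1+FAC over FAC (log2 1.47, SE 0.220) and 1.83-fold in MT+FAC over FAC (log2 0.88, SE 0.222).

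Abcc3 encodes MRP3, the basolateral pump that returns glucuronides to the blood. It held 454, 497 and 434 CPM in Control, 518, 547 and 531 with FAC, 558, 560 and 585 with Lip-1+FAC, and 576, 559 and 560 with MT+FAC. Control was below the other groups, and the pretreated libraries lay just above the FAC libraries. Abcc3 rose 1.15-fold with FAC (log2 0.21, SE 0.0547). Its differences of 0.09 (log2, SE 0.0546) in Lip-1+FAC and 0.09 (SE 0.0546) with MT+FAC, both against FAC, were not called, although the ranges were apart.

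**Figure D2:**
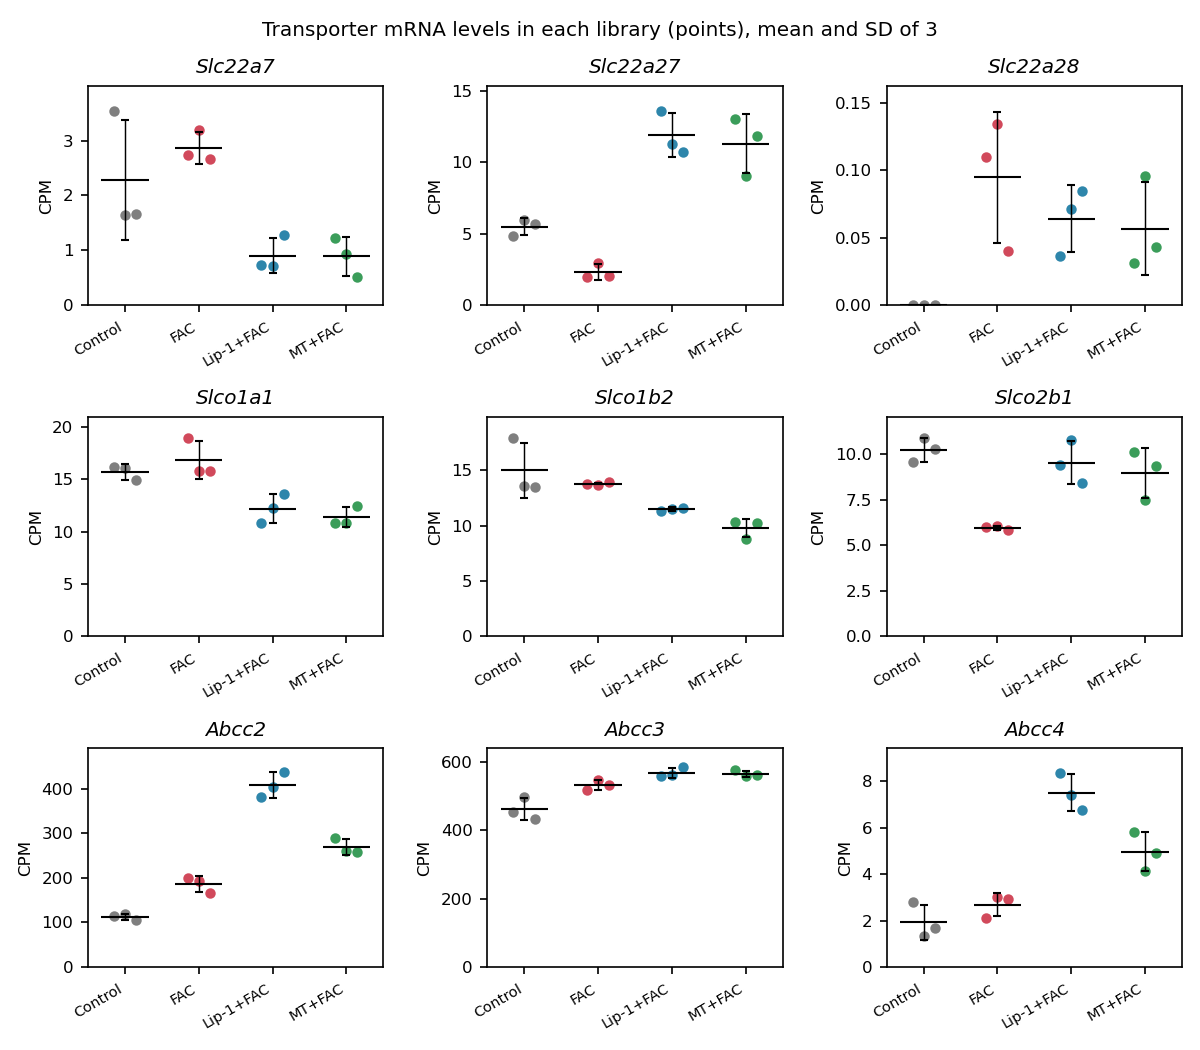
Level of each of the 9 transporters in CPM, 1 point per library, with the mean and SD of 3 libraries per group and every axis starting at 0. Abcc2 runs from 105 CPM in Control to 438 in Lip-1+FAC without overlap between groups, Slc22a27 and Slco2b1 are lowest in FAC, and Slc22a7 is lowest in the pretreated groups.

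The tested SLC22 members went opposite ways with the scavengers. Slc22a27 belongs to a group of rodent organic anion transporters whose substrates are less well known. It was at 4.83, 5.96 and 5.68 CPM in Control, 1.94, 2.95 and 2.02 with FAC, 13.6, 11.3 and 10.7 with Lip-1+FAC, and 13.0, 9.01 and 11.8 with MT+FAC. Every FAC library was below every Control library, and every pretreated library was above both groups. Slc22a27 fell 2.32-fold with FAC (log2 -1.21, SE 0.193) and rose 5.02-fold in Lip-1+FAC over FAC (log2 2.33, SE 0.186) and 4.76-fold in MT+FAC over FAC (log2 2.25, SE 0.186). These were the largest differences from FAC of any tested member in either pretreated group.

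Slc22a7 encodes OAT2, a sinusoidal carrier of organic anions. Its levels were 3.55, 1.65 and 1.66 CPM in Control, 2.74, 3.20 and 2.66 with FAC, 0.728, 0.715 and 1.27 with Lip-1+FAC, and 1.22, 0.926 and 0.518 with MT+FAC. Control and FAC overlapped because Control replicate 1 was above the FAC libraries, whereas the pretreated groups lay below both. The log2 difference of FAC over Control, 0.34 (SE 0.323), was not called. Slc22a7 fell 3.21-fold in Lip-1+FAC against FAC (log2 -1.68, SE 0.352) and 3.17-fold in MT+FAC against FAC (log2 -1.66, SE 0.347).

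Slc22a28, the third SLC22 member, had 0 counts in each Control library, 3, 7 and 1 in FAC, 1, 2 and 2 in Lip-1+FAC, and 1, 3 and 1 with MT+FAC. A count of 0 allows up to 3 counts, or 0.113 to 0.128 CPM in the Control libraries, and FAC replicate 2, the deepest library, reached 0.134 CPM. The gene was at the edge of detection in every group, and no fold is given for it. These limits cover counting error only.

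The SLCO members encode organic anion transporting polypeptides (OATPs). Slco2b1, whose product OATP2B1 takes up steroid sulfates and drugs, was at 9.57, 10.9 and 10.3 CPM in Control, 5.99, 6.05 and 5.81 with FAC, 9.39, 10.8 and 8.42 with Lip-1+FAC, and 10.1, 7.48 and 9.33 with MT+FAC. The FAC libraries were below all the others, and the pretreated groups overlapped Control. Slco2b1 fell 1.72-fold with FAC (log2 -0.78, SE 0.137) and rose 1.6-fold in Lip-1+FAC over FAC (log2 0.68, SE 0.138) and 1.5-fold in MT+FAC over FAC (log2 0.59, SE 0.137). Unlike Slc22a27, it was not called against Control in either pretreated group (log2 -0.10 and -0.19).

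Slco1a1 encodes OATP1A1, an uptake carrier of bile acids and steroid conjugates known to be higher in male than in female mouse liver. It stood at 16.2, 16.1 and 14.9 CPM in Control, 19, 15.8 and 15.8 with FAC, 10.8, 12.3 and 13.6 with Lip-1+FAC, and 10.8, 10.8 and 12.5 with MT+FAC. Control and FAC overlapped (log2 0.10, SE 0.114, not called), and the pretreated groups were below both. Slco1a1 fell 1.38-fold in Lip-1+FAC against FAC (log2 -0.47, SE 0.116) and 1.48-fold in MT+FAC against FAC (log2 -0.57, SE 0.116).

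Slco1b2 encodes OATP1B2, the main hepatic uptake carrier of unconjugated bile acids in mice. It was at 17.9, 13.6 and 13.5 CPM in Control, 13.8, 13.7 and 13.9 with FAC, 11.3, 11.5 and 11.6 with Lip-1+FAC, and 10.3, 8.82 and 10.2 with MT+FAC. Control replicate 1 was above all other libraries, the other Control libraries were just below FAC, and MT+FAC was lowest. The log2 difference of FAC over Control was -0.12 (SE 0.118) and was not called. Without Control replicate 1 it was 0.03. Slco1b2 fell 1.41-fold in MT+FAC against FAC (log2 -0.50, SE 0.120), and its log2 difference of -0.27 (SE 0.119) in Lip-1+FAC against FAC was not called.

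Counted over the list, 4 of the 8 tested members were called in FAC against Control, where 36.6% of all tested genes were called. Abcc2 and Abcc3 were the 2 higher ones, as were 17.5% of all genes, and Slc22a27 and Slco2b1 the 2 lower ones, as were 19.1%. The ranges of 4 members did not overlap there, as was the case for 46.2% of all genes. In Lip-1+FAC against FAC, 6 of 8 were called, where 39.9% of all genes were. These were 4 higher (20.7% of all genes) and 2 lower (19.2%), and the ranges of all 8 were apart, as for 50.8% of all genes. In MT+FAC against FAC, 7 of 8 were called, where 40.9% of all genes were. These were 4 higher (21.2% of all genes) and 3 lower (19.7%), and the ranges of all 8 were apart, as for 52.9%. The median log2 differences of the members were 0.15, 0.39 and 0.31 in these 3 comparisons, against -0.0061, 0.00062 and -0.0011 over all tested genes. Because the members were chosen with such differences in view, these shares describe the list and are not compared further. The comparisons also share the FAC libraries, so that a chance deviation of the FAC group enters all 3.

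**Figure D3:**
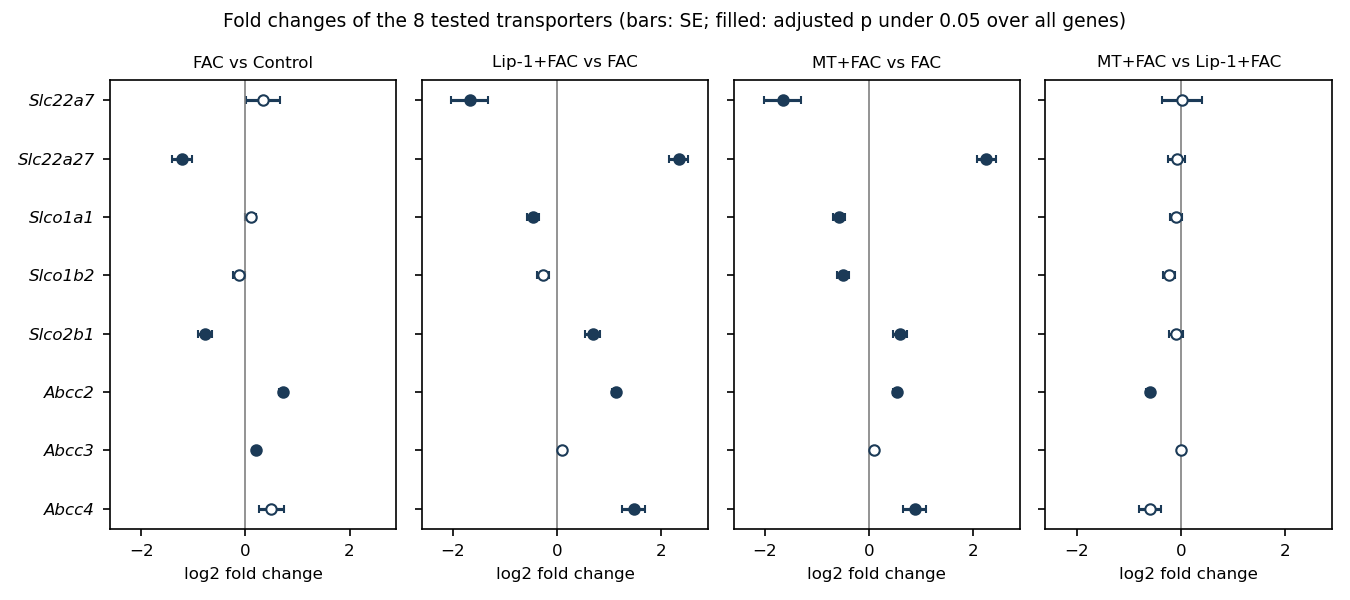
Log2 fold change of the 8 tested transporters in 4 comparisons, with bars for the SE, filled points for calls at an adjusted p under 0.05 and open points for values not called. Slc22a27 lies at -1.21 with FAC and at 2.33 and 2.25 with the scavengers over FAC, Slc22a7 lies at -1.68 and -1.66, and in MT+FAC against Lip-1+FAC the point for Abcc2, at -0.60, is the called one.

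Set directly against each other, the pretreated groups differed in 1 of the 8 tested members, where 1.34% of all genes were called, 0.465% higher and 0.879% lower in MT+FAC. Abcc2 was 1.52-fold lower in MT+FAC than in Lip-1+FAC (log2 -0.60, SE 0.0751), with 257 to 289 CPM against 381 to 438. Abcc4 had the same log2 difference, -0.60, with an SE of 0.211 and no call, and its ranges did not overlap. Slco1b2 also had ranges that did not overlap, with a log2 difference of -0.23 (SE 0.122) and no call. These 3 of 8 members had ranges apart, as did 19.8% of all genes. Slc22a7, Slc22a27, Slco1a1, Slco2b1 and Abcc3 overlapped between the groups, with log2 differences from -0.10 to 0.02. A p that misses the threshold does not show that the scavengers act alike on these genes.

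Against Control, 7 of 8 members were called in Lip-1+FAC, where 30.2% of all genes were called, and 7 of 8 in MT+FAC, where 19.8% were. In both pretreated groups 7 members had ranges apart from Control, against 43.3% and 38.2% of all genes. Called higher were 4 members in each, with 15.4% of all genes in Lip-1+FAC and 9.71% with MT+FAC, and called lower were 3 in each, with 14.8% and 10.1% of all genes. The higher ones were Abcc2 (log2 1.85, SE 0.0779, in Lip-1+FAC and 1.25, SE 0.0768, with MT+FAC), Abcc4 (1.97, SE 0.234, and 1.37, SE 0.236), Slc22a27 (1.11, SE 0.175, and 1.04, SE 0.175) and Abcc3 (0.30, SE 0.0548, and 0.29, SE 0.0547). The lower ones were Slc22a7 (log2 -1.34, SE 0.361, and -1.32, SE 0.355), Slco1b2 (-0.39, SE 0.120, and -0.62, SE 0.121) and Slco1a1 (-0.37, SE 0.117, and -0.47, SE 0.117). Slco2b1 was not called, at -0.10 (SE 0.135) and -0.19 (SE 0.135). The 3 lower calls in Lip-1+FAC were all lost without Control replicate 1. Only the 4 higher calls were then made, with Slc22a7 at -0.88, Slco1b2 at -0.24 and Slco1a1 at -0.34. Slco1b2 and Slco1a1 also lost that call without Lip-1+FAC replicate 1 (-0.37 and -0.28) or 2 (-0.38 and -0.37), and Slco1a1 without Control replicate 2 (-0.35). In MT+FAC, Slc22a7 was not called without Control replicate 1 (-0.87) or without MT+FAC replicate 3 (-1.08).

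Transporters outside the list were taken from 67 further genes of organic ion and bile transport, of which 41 passed the filter. With FAC, 5 of the 41 rose and 19 fell, with a median log2 difference of -0.33, where 17.5% of all genes rose and 19.1% fell. In Lip-1+FAC over FAC, 22 rose and 4 fell, with a median of 0.49, where 20.7% and 19.2% of all genes did. In MT+FAC over FAC, 19 rose and 4 fell, with a median of 0.40, where 21.2% and 19.7% did. Against Control, 15 were higher and 7 lower in Lip-1+FAC (15.4% and 14.8% of all genes), and 9 were higher and 3 lower in MT+FAC (9.71% and 10.1%). With 1 library left out, the genes lower than Control numbered 3 to 8 in Lip-1+FAC and 1 to 4 in MT+FAC, and the rises with FAC 3 to 5, the 3 being without FAC replicate 2. Between the pretreated groups 0 of the 41 were called by edgeR's quasi-likelihood test and 0 by DESeq2, where 1.34% of all genes were called in edgeR. An unadjusted p under 0.05 in edgeR was found for 7 of the 41, and for 1795 of the 13535 genes tested.

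**Figure D4:**
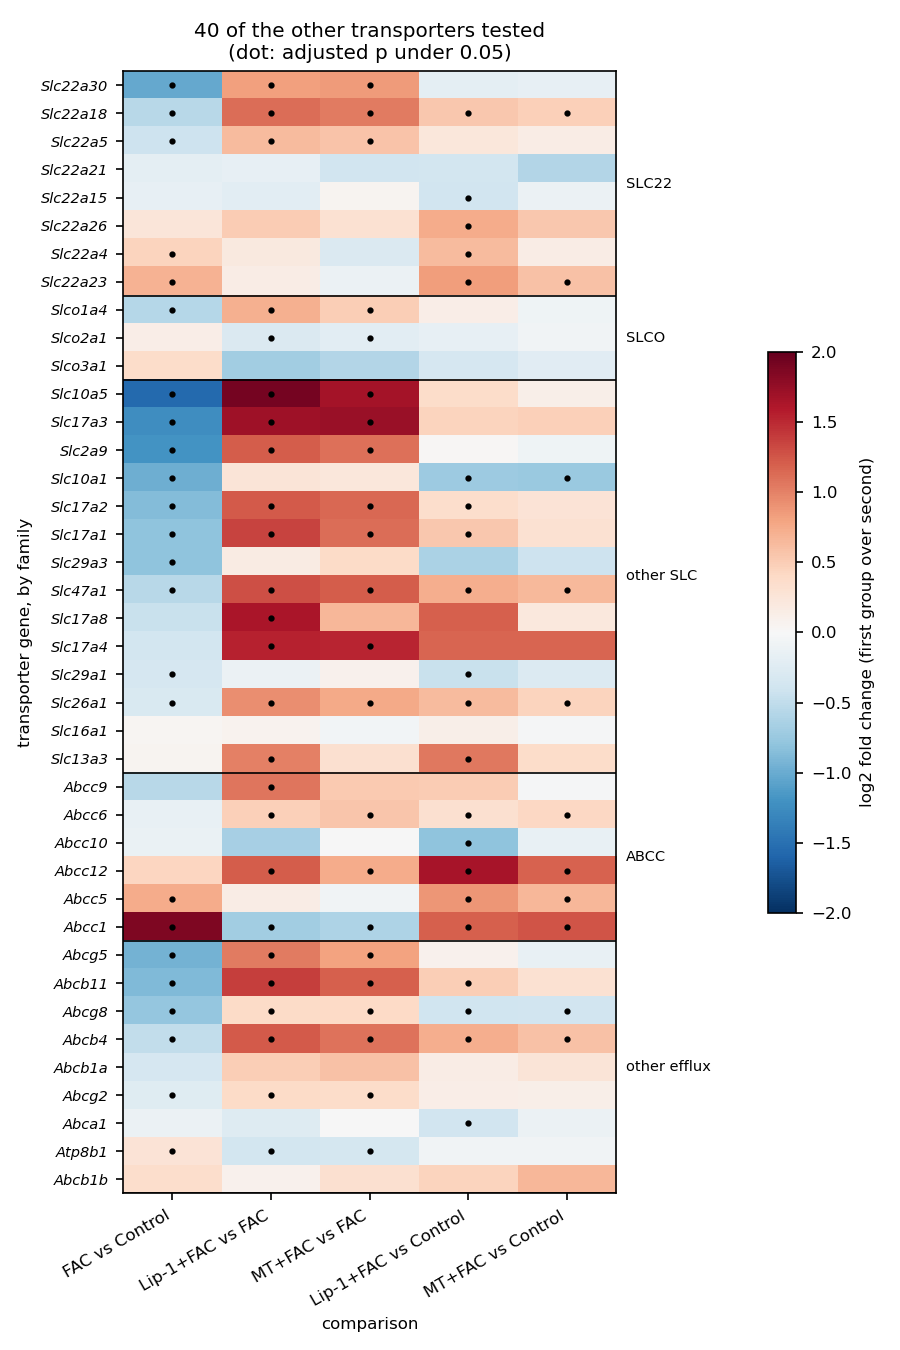
Log2 fold change of 40 of the 41 other tested transporters (rows, by family, ordered within a family by FAC against Control) in 5 comparisons, on a colour scale from -2 to 2, with a dot where the adjusted p is under 0.05. The solute carriers outside the SLC22 and SLCO families are mostly lower with FAC and higher with either scavenger over FAC, from -1.56 to 1.92 for Slc10a5, and Abcc1 goes the other way, at 1.87 and -0.69.

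Of 9 further SLC22 genes, 2 rose and 3 fell with FAC, where 17.5% of all genes rose and 19.1% fell. One of the rises, that of Slc22a4 (log2 0.44), was lost without Control replicate 2 (0.38) or 3 (0.40) or FAC replicate 2 (0.29) or 3 (0.48), with upper-quartile scaling (0.43) or with only FAC and Control fitted (0.46). Slc22a23, an orphan carrier, rose with FAC from 82.5 ± 13.8 CPM to 132.9 ± 10.2 (SD, n = 3 each, log2 0.69, edgeR adjusted p = 2.03e-05). Slc22a30, the close relative of Slc22a28, fell from 4.49 ± 0.389 to 2.27 ± 0.709 CPM (log2 -1.02, adjusted p = 0.00126), with 24.4% of its own windows shared with relatives. Of the SLCO genes outside the list, 3 of 12 could be tested: 0 rose and 1 fell with FAC, and 1 rose and 1 fell with each scavenger over FAC. Over all genes, 20.7% rose and 19.2% fell in Lip-1+FAC over FAC, and 21.2% and 19.7% did in MT+FAC over FAC. Slco1a4, an uptake carrier related to Slco1a1 and named here after its values were seen, was at 3.05 ± 0.424 CPM in Control, 2.04 ± 0.124 with FAC, 3.36 ± 0.189 with Lip-1+FAC and 2.86 ± 0.254 with MT+FAC. It rose in Lip-1+FAC over FAC (log2 0.71, edgeR adjusted p = 0.00576). Its fall with FAC (log2 -0.57, adjusted p = 0.0238) was lost without Control replicate 2 (-0.47) or 3 (-0.57) or FAC replicate 2 (-0.60) or 3 (-0.53), with no filter (-0.56) or with only FAC and Control fitted (-0.56). Its rise in MT+FAC over FAC (log2 0.49, adjusted p = 0.0468) was lost when any one library of these groups was left out (0.42 to 0.55), with DESeq2 (adjusted p = 0.0624), and under most other alternatives. Slco2a1, the prostaglandin transporter, fell in Lip-1+FAC against FAC (log2 -0.29, adjusted p = 0.00216). Its fall in MT+FAC against FAC (log2 -0.21, adjusted p = 0.0193) was not called without FAC replicate 2 (-0.20), MT+FAC replicate 1 (-0.18) or MT+FAC replicate 3 (-0.19).

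Of 14 solute carriers from other families, 10 fell and 0 rose with FAC, and 10 rose in Lip-1+FAC and 8 with MT+FAC over FAC, with 0 falls in either. Over all genes, 17.5% rose and 19.1% fell with FAC. The shares over FAC were 20.7% and 19.2% in Lip-1+FAC, and 21.2% and 19.7% with MT+FAC. Slc10a1 encodes NTCP, the sodium-dependent carrier that brings conjugated bile acids into hepatocytes. It fell with FAC from 26.5 ± 2.11 to 13.6 ± 2.02 CPM (log2 -0.97, edgeR adjusted p = 5.28e-06), and stood at 16.1 ± 1.51 in Lip-1+FAC and 15.9 ± 1.29 with MT+FAC, neither called against FAC (adjusted p = 0.105 and 0.126). With 1 library left out the log2 differences ran from 0.14 to 0.37 and from 0.13 to 0.35. Both were called at the upper end, without FAC replicate 3. Slc10a5, a relative of Slc10a1, went from 5.68 ± 0.738 CPM in Control to 1.97 ± 0.746 in FAC (log2 -1.56, adjusted p = 1.9e-05) and was at 7.27 ± 0.282 in Lip-1+FAC (log2 1.92 over FAC, adjusted p = 1.4e-06) and 6.13 ± 0.728 in MT+FAC (log2 1.67, adjusted p = 8.39e-06). Slc17a3, a carrier of urate and organic anions, and Slc2a9, a urate carrier, fell with FAC too, by log2 -1.25 (adjusted p = 0.00188) and -1.19 (adjusted p = 0.000249). Over FAC, Slc17a3 rose by log2 1.69 in Lip-1+FAC and 1.73 with MT+FAC (adjusted p = 9.69e-05 and 8.31e-05), and Slc2a9 by 1.21 and 1.10 (adjusted p = 0.000177 and 0.000448). Slc47a1 encodes MATE1, which exports cations into bile, and rose over FAC from 2.88 ± 0.456 CPM to 6.94 ± 0.337 in Lip-1+FAC (log2 1.29, adjusted p = 4.84e-05) and 6.54 ± 1.70 in MT+FAC (log2 1.21, adjusted p = 0.000103). It was at 4.17 ± 0.717 CPM in Control, and its fall with FAC (log2 -0.56, adjusted p = 0.0388) was lost without Control replicate 2 (-0.56) or 3 (-0.43) or FAC replicate 2 (-0.41), or with only FAC and Control fitted (-0.53).

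Among 6 further ABCC genes, 2 rose with FAC and 0 fell, where 17.5% and 19.1% of all genes did. Over FAC, 3 rose and 1 fell in Lip-1+FAC (20.7% and 19.2% of all genes). In MT+FAC, 2 rose and 1 fell (21.2% and 19.7%). With any 1 library left out, 2 rose and 1 to 2 fell in Lip-1+FAC. The gene that fell in both pretreated groups was Abcc1. Abcc1 encodes MRP1, a basolateral pump of glutathione conjugates that is low in resting hepatocytes. It was at 2.82, 3.08 and 2.37 CPM in Control, 9.83, 9.21 and 11.3 with FAC, 7.17, 5.65 and 6.01 with Lip-1+FAC, and 5.38, 8.27 and 6.17 with MT+FAC. Its FAC libraries were the highest. It rose 3.66-fold with FAC (log2 1.87, edgeR adjusted p = 4.01e-07) and fell in Lip-1+FAC (log2 -0.69, adjusted p = 0.00319) and MT+FAC (log2 -0.61, adjusted p = 0.00679) against FAC. Abcc5 encodes MRP5, a cyclic nucleotide pump, and rose from 22.8 ± 4.19 CPM in Control to 38.0 ± 1.12 in FAC (log2 0.74, adjusted p = 3.75e-05). It was at 42.2 ± 3.81 in Lip-1+FAC and 36.2 ± 1.86 with MT+FAC, not called against FAC.

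Of 9 efflux genes outside the ABCC family, 1 rose and 5 fell with FAC (17.5% and 19.1% of all genes). Over FAC, 5 rose and 1 fell with each scavenger (20.7% and 19.2% of all genes in Lip-1+FAC, 21.2% and 19.7% with MT+FAC). The gene that went the other way each time was Atp8b1, a phospholipid flippase, whose rise with FAC was lost without Control replicate 3 (log2 0.22) or FAC replicate 1 (0.30) or 2 (0.23), and whose fall in Lip-1+FAC was lost without Lip-1+FAC replicate 1 (-0.28). Abcb11 encodes BSEP, the bile salt export pump. It fell with FAC from 25.4 ± 3.50 to 13.7 ± 1.13 CPM (log2 -0.89, edgeR adjusted p = 0.000233) and rose over FAC to 35.6 ± 4.74 in Lip-1+FAC (log2 1.38, adjusted p = 2.85e-06) and 31.1 ± 6.67 in MT+FAC (log2 1.19, adjusted p = 1.54e-05). Abcg2, a pump of drugs, urate and porphyrins, had smaller changes in the same directions: log2 -0.25 with FAC (adjusted p = 0.00617), 0.39 in Lip-1+FAC over FAC (adjusted p = 0.00015) and 0.37 in MT+FAC over FAC (adjusted p = 0.000237).

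Transcription factors that control hepatic transporter genes were listed too, 23 in all. With FAC, 3 rose and 8 fell, against 4 and 6 in Lip-1+FAC and 6 and 5 in MT+FAC, both over FAC. Over all genes, 17.5% rose and 19.1% fell with FAC, 20.7% and 19.2% in Lip-1+FAC over FAC, and 21.2% and 19.7% with MT+FAC over FAC. Nr1h4 encodes FXR, the bile acid receptor that drives Abcb11. It was at 71.0, 80.1 and 80.1 CPM in Control, 27.8, 26.6 and 27.9 with FAC, 53.1, 50.5 and 53.7 with Lip-1+FAC, and 54.5, 49.4 and 50.9 with MT+FAC, with no overlap between Control, FAC and either pretreated group. It fell with FAC (log2 -1.49, edgeR adjusted p = 1.12e-10) and rose with each scavenger over FAC (log2 0.93 and 0.91, adjusted p = 2.56e-08 and 5.43e-08). Nr1i2 encodes PXR, a xenobiotic receptor. It fell with FAC from 20.3 ± 1.20 to 10.2 ± 0.614 CPM (log2 -0.99, adjusted p = 5.46e-06) and rose in MT+FAC over FAC (log2 0.64, adjusted p = 0.00041). In Lip-1+FAC it was at 11.9 ± 1.74 CPM, not called against FAC (adjusted p = 0.167). With 1 library left out this log2 difference ran from 0.13 to 0.33, and it was called at 0.33, without Lip-1+FAC replicate 1.

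Bcl6, a repressor known to be higher in male than in female mouse liver, rose with FAC from 26.5 ± 1.05 to 36.1 ± 3.32 CPM (log2 0.44, edgeR adjusted p = 0.00082) and fell with each scavenger against FAC (log2 -0.81 in both, adjusted p = 1.78e-06 in Lip-1+FAC and 2.16e-06 with MT+FAC). Foxa3, a hepatocyte forkhead factor, fell with each scavenger against FAC (log2 -0.87 in both, adjusted p = 3.14e-07 and 4.56e-07). Nfe2l2, which encodes NRF2, fell with FAC from 209.7 ± 16.0 to 171.4 ± 9.41 CPM (log2 -0.29, adjusted p = 0.00252). Its rises in Lip-1+FAC (log2 0.20, adjusted p = 0.0261) and MT+FAC (log2 0.23, adjusted p = 0.011) were small. The first was lost without FAC replicate 1 (0.21) or 3 (0.16) or Lip-1+FAC replicate 2 (0.19) or 3 (0.18), and the second without MT+FAC replicate 3 (0.19). These are transcript levels, and NRF2 is known to be controlled mostly through protein stability. Hnf4a, the main hepatocyte nuclear receptor, was at 385.4 ± 58.6 CPM in Control and 319.4 ± 13.1 in FAC (log2 -0.27, adjusted p = 0.0681, and called at -0.39 without Control replicate 3, at -0.29 with upper-quartile scaling or at -0.26 with no filter on low counts). Nr1i3, which encodes CAR, was under 1 CPM in all libraries, and 42.3% of its windows are shared with the overlapping gene Tomm40l, so that its values are uncertain.

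Scaffold and trafficking proteins that hold transporters at the membrane numbered 10, of which 2 rose and 2 fell with FAC, where 17.5% and 19.1% of all genes did. In Lip-1+FAC over FAC, 2 rose and 3 fell (20.7% and 19.2% of all genes), and in MT+FAC over FAC, 3 rose and 3 fell (21.2% and 19.7%). With FAC, the rise of Ezr was lost without Control replicate 1 (log2 0.37). In Lip-1+FAC, the rise of Slc9a3r2 (log2 0.32) was lost without FAC replicate 1 (0.28) or 2 (0.30) or Lip-1+FAC replicate 1 or 2 (0.26 each), with no filter (0.32) or with only Lip-1+FAC and FAC fitted (0.31). Of the 6 calls in MT+FAC, 4 were lost without FAC replicate 1 or without FAC replicate 3: Rdx (log2 0.16 and 0.14), Myo5b (0.28 and 0.26), Ezr (-0.43 and -0.39) and Rab11a (-0.25 and -0.17). Each of the 4 was also lost without at least 1 MT+FAC library. Pdzk1, a PDZ scaffold that anchors OATP1A1 in the mouse hepatocyte membrane, fell with FAC from 13.8 ± 2.13 to 7.87 ± 0.245 CPM (log2 -0.81, edgeR adjusted p = 0.000209) and was at 8.47 ± 1.30 and 8.62 ± 0.858 in the pretreated groups, not called against FAC. Its overlap with Gpr89 makes these levels uncertain: with the stranded columns summed, both pretreated groups were called over FAC (log2 0.29 and 0.37). Msn encodes moesin, a membrane-actin linker that is typical of non-parenchymal cells. It rose with FAC from 58.2 ± 0.689 to 109.6 ± 25.5 CPM (log2 0.91, adjusted p = 0.00226) and fell with each scavenger against FAC (log2 -1.14 and -0.90, adjusted p = 0.00049 and 0.00221).

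Enzymes that make the conjugates these pumps carry numbered 18, of which 0 rose and 5 fell with FAC, where 36.6% of all genes were called. In Lip-1+FAC over FAC 6 rose and 7 fell (39.9% of all genes called), and in MT+FAC over FAC 6 rose and 6 fell (40.9%). Sult1c2, a sulfotransferase, fell with FAC from 1.5 ± 0.323 to 0.400 ± 0.109 CPM (log2 -1.93, edgeR adjusted p = 8.91e-05) and rose over FAC to 2.19 ± 0.237 in Lip-1+FAC (log2 2.47, adjusted p = 4.21e-06) and 1.66 ± 0.103 in MT+FAC (log2 2.08, adjusted p = 3.7e-05). Ugt2b5, an abundant glucuronosyltransferase with 24.4% of its windows shared with Ugt2b38 or Ugt2b37, fell from 938.7 ± 13.3 to 601.9 ± 40.6 CPM with FAC and was at 1349 ± 42.8 and 1233 ± 129 in the pretreated groups (log2 -0.64, 1.16 and 1.03, adjusted p = 1.23e-06, 1.76e-09 and 9.4e-09). Sult2a8 was lower with each scavenger than in FAC (log2 -1.23 and -1.34, adjusted p = 6.36e-06 and 3.22e-06).

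Genes whose log2 CPM ran most like that of each member over the 12 libraries were searched among the tested genes with a mean of at least 5 CPM, 9131 or 9132 in number. For Slc22a27 they were Serpind1 (Pearson r 0.989), Pros1 (0.987) and Pbld2 (0.986), the first 2 encoding the anticoagulants heparin cofactor II and protein S. For Abcc2 they were Tyw1 (0.986), Mia3 (0.983) and Ugdh (0.983), the last being the enzyme that makes UDP-glucuronic acid. Abcc4 was nearest to Tpst1 (0.963), Rcan1 (0.956) and the glutathione transferase Gsta2 (0.955), and Abcc3 to Mast2 (0.976), Exoc6b (0.965) and Polh (0.964). Slc22a7 was nearest to Cpb2 (0.959), Cyp4a12b (0.949) and Eva1a (0.940), and Slco1b2 to Mxi1 (0.938), Ccdc141 (0.934) and Cyp4a12a (0.926). Cyp4a12a and Cyp4a12b are fatty acid hydroxylases known to be higher in male liver, with 35.7% and 36.3% of their windows shared with each other. Slco1a1 was nearest to Cd164 (0.929), Mcc (0.924) and Bmt2 (0.924), and Slco2b1 to Slc25a20 (0.957), Tor1a (0.943) and Zcchc17 (0.943). The 12 points of each such correlation fall into 4 groups, so that r mostly reflects the group means, and as the highest of all genes searched it is given as a description.

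Markers of other cell types moved with these results and are given beside them. Of 6 cholangiocyte markers, 5 were tested, and 4 of them, Krt19, Krt7, Epcam and Sox9, rose with FAC and fell with each scavenger against FAC. Sox9 went from 17.4 ± 2.20 CPM in Control to 53.4 ± 4.10 in FAC, 12 ± 1.47 in Lip-1+FAC and 15.1 ± 1.53 with MT+FAC, and Krt19 from 3.96 ± 0.483 to 9.96 ± 3.97, 1.58 ± 0.294 and 2.70 ± 0.339. Krt7 and Epcam were at most 1.46 CPM, and their rises with FAC were lost under several alternatives: Krt7 with no filter on low counts (adjusted p = 0.112), with DESeq2 (0.0712), with only FAC and Control fitted (0.0604), or without any one of Control replicates 1 to 3 or FAC replicates 1 or 3 (log2 0.83 to 1.34), and Epcam without Control replicate 1 or 3 or FAC replicate 1 or 2 (1.36 to 1.65). Spp1 rose instead with each scavenger (log2 1.22 and 1.24 over FAC). The 6 markers summed to 58.6 to 69.0 CPM in Control, 98.4 to 123.3 in FAC, 109.6 to 124.9 in Lip-1+FAC and 104.0 to 144.7 in MT+FAC. Cftr, the defining channel of these cells, had 0 to 2 counts in each of the 12 libraries, which is at the edge of detection in every group.

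The 8 Kupffer cell and leukocyte markers summed to 223.7 to 255.6 CPM in Control, 289.8 to 322.2 in FAC, 116.8 to 147.3 in Lip-1+FAC and 143.2 to 174.7 in MT+FAC, most of it from Cd68, with none at 0 throughout a group. The 6 stellate cell markers summed to 9.27 to 14.3, 18.9 to 19.6, 7.90 to 9.19 and 9.06 to 9.81 CPM in the same order. The stellate sum in FAC was mostly Reln, which rose with FAC from 7.46 ± 1.55 to 16.1 ± 0.139 CPM (log2 1.11, edgeR adjusted p = 4.54e-05), and of the other 3 tested stellate markers none rose and Dcn fell (log2 -0.60, adjusted p = 0.0381), a call lost without Control replicate 1 (-0.35), FAC replicate 1 (-0.56) or FAC replicate 2 (-0.56), with no filter (-0.59) or with only FAC and Control fitted (-0.58). In the same order, the 6 endothelial markers summed to 34.6 to 36.0, 33.6 to 34.3, 24.9 to 26.6 and 25.8 to 29.7. Of the 5 tested endothelial markers, Stab2 fell against FAC with each scavenger, from 26.5 ± 0.779 CPM to 17.9 ± 1.98 in Lip-1+FAC and 19.2 ± 2.57 with MT+FAC (log2 -0.57 and -0.46, edgeR adjusted p = 0.000331 and 0.00182), and the other 4 were not called. The 10 hepatocyte markers summed to 67925 to 72109 CPM in Control, 60416 to 64830 in FAC, 69750 to 76025 in Lip-1+FAC and 74861 to 75226 in MT+FAC. The hepatocyte sum was lowest in FAC mainly through its most abundant gene, Tf, which rose over FAC by log2 0.33 in Lip-1+FAC and 0.41 with MT+FAC, and through Hpx (0.51 and 0.45). Counted by gene, 1 of the 10 hepatocyte markers rose and 4 fell with FAC (17.5% and 19.1% of all genes). Over FAC, 3 rose and 6 fell in Lip-1+FAC (20.7% and 19.2%), and 3 rose and 5 fell in MT+FAC (21.2% and 19.7%). With FAC, 2 of the 4 falls, those of Tf (log2 -0.18) and Hpx (-0.20), were lost without Control replicate 2 (-0.14 and -0.18), without FAC replicate 3 (-0.15 each) or with only FAC and Control fitted (-0.17 and -0.18), and that of Tf also without Control replicate 3 or FAC replicate 2 (-0.19 each). Ttr, Apoa1, Asgr1 and Serpina1c fell in both pretreated groups against FAC, with log2 differences from -0.35 to -1.74. Alb fell too (log2 -0.24 and -0.21), the call in MT+FAC being lost without FAC replicate 1 or MT+FAC replicate 1 or 3 (-0.19 each). Of the 7 tested Kupffer cell and leukocyte markers, Cd68 rose with FAC (log2 0.39). Clec4f was called lower (-1.08), a call lost without Control replicate 1 (-0.80) or 3 (-1.15) or FAC replicate 1 (-0.89) or 3 (-0.99), with no filter or with only FAC and Control fitted (-1.06 each), and the other 5 were not called. Against FAC, Cd68 alone of these 7 was called in Lip-1+FAC, falling from 295.5 ± 15.7 to 124.5 ± 16.5 CPM. With MT+FAC it fell to 144.7 ± 16.8 CPM, Clec4f was called higher (log2 1.16), and the other 5 were not called. The Clec4f rise was lost without FAC replicate 1 or 3 or MT+FAC replicate 2 or 3. The lower Kupffer cell and leukocyte sums with the scavengers thus rest on Cd68. The part of these shifts in the transporter results was not tested.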

How the data were processed

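Per the labels' protocols, the SMART-Seq v4 kit gave full-length cDNA, which Nextera XT turned into libraries for paired-end NovaSeq sequencing. The authors deposited raw counts of reads per gene, not normalized, in 3 columns per library; STAR and GRCm38 are named per the submitters' processing notes, and the versions and annotation are not given in the sources used here. The kit does not mark strand, so the unstranded column was used. No molecular identifiers are mentioned, so reads are not independent molecules. Lines that name no gene held 18.8% to 24.2% of reads (multimapping reads 4.88% to 6.23%) and stayed out of library sizes. GENCODE M21 matched 55141 of 55487 identifiers; the rest held 0.0158% of counts.

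Genes were kept by filterByExpr (13535), scaled by TMM and tested with the two-sided quasi-likelihood F test of edgeR 4.0.16 (R 4.3.3; robust, 4 group means, 12 libraries, no covariate), adjusted by Benjamini-Hochberg over all genes and called at an adjusted p under 0.05. The SE is the size of the log2 fold change over the square root of F. CPM uses TMM-scaled library sizes. On simulated counts for FAC against Control (13131 genes, 200 changed by log2 1), 72.6% of changes were called and 5.3% of calls were false. The simulation used the spread fitted to these data and changed a far smaller share of genes than the 36.6% called in them. Its rates therefore need not hold for the data. Shared sequence was searched with exact 100-base windows and blastn 2.17.0+, and reading frames were aligned with Biopython 1.88.

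The members and all gene lists were chosen with earlier results of these data known. Named genes are the 9 members; up to 4 called genes per direction with the largest changes in each of 4 lists (other transporters, regulators, scaffolds, conjugating enzymes) and each of FAC against Control and either pretreated group against FAC, fewer being printed where a call was unstable; 9 well-known genes of those lists, 1 of which is not reported here; markers; and the 3 genes nearest each member. Alternatives were RLE and upper-quartile scaling, no filter or a mean of 5 CPM, DESeq2 1.42.0, 2-group fits, both stranded columns summed, a replicate block, and each library left out.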

Additional observations from a re-analysis of the deposited data

How the results depend on the processing

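The counts of called members stayed within 1.5 times under every alternative in the 6 comparisons, except in Lip-1+FAC against Control, where leaving out single libraries gave 4 to 7 members and 7 were called with all. Between the pretreated groups, 182 genes were called, 34.6% of them higher in MT+FAC (46.7% with upper-quartile scaling). This count was 477 with no filter, 435 with DESeq2, 312 with only the 2 groups fitted, and 74 to 156 when 1 library was left out. For the other transporters it was 0, and 1 with no filter or with only the 2 groups fitted. Some uncalled log2 differences of members between the pretreated groups changed sign: Slc22a7 from 0.02 (-0.27 to 0.33 with 1 library left out), Slc22a27 from -0.08 (-0.19 to 0.05), Slco2b1 from -0.09 (-0.18 to 0.02) and Abcc3 from -0.0058 (-0.02 to 0.02, 0.01 with upper-quartile scaling and 0.0028 with no filter). With 1 library left out, the uncalled FAC against Control values of Slco1b2 ran from -0.19 to 0.03 and of Spp1 from -0.0065 to 0.23, and Hnf4a in MT+FAC against FAC ran from -0.06 to 0.10. Also uncalled were Dcn in MT+FAC against FAC (-0.06 to 0.11) and, with FAC against Control, Ttr (-0.04 to 0.11) and Asgr1 (-0.01 to 0.08). Nr1i3 ran from -0.98 to 0.002 with FAC, -0.31 to 0.85 in Lip-1+FAC and -0.55 to 0.43 in MT+FAC, both against FAC, and with the stranded columns summed it was called at -0.64, 0.55 and 0.74. The cause was not tested.

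Replicate numbers are shared between groups in the labels, but deviations of same-numbered libraries correlated at only -0.249 to 0.164, and in no comparison were all 3 over 0.1, so that the numbers do not pair the libraries. With the replicate block, 4, 6, 7, 1, 7 and 7 members were called in FAC against Control, Lip-1+FAC against FAC, MT+FAC against FAC, MT+FAC against Lip-1+FAC, and Lip-1+FAC and MT+FAC against Control, as without it. Slc22a7 in MT+FAC against Lip-1+FAC was -0.02 with the block. Among other genes named in the report, the block took the calls of Slc22a4 (0.44), Dcn (-0.59) and Clec4f (-1.11) with FAC, of Slc9a3r2 (0.32) in Lip-1+FAC over FAC, and of Slco1a4 (0.49) and Rdx (0.15) in MT+FAC over FAC.

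RLE and upper-quartile scaling moved the median log2 difference of all genes by at most 0.021 in size. Depth limits Slc22a28, with at most 7 counts, and gives Slc22a7 and Abcc4, with 12 to 230 counts, wider errors than Abcc2 and Abcc3.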
